A study of Mus musculus with 6 samples.

Results

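The 10 genes described here act in lipoprotein particles, lipid transfer and cholesterol export, and were measured in macrophages from the cerebrospinal fluid of mice with leptomeningeal metastasis. They were chosen by name, and all 10 have a row among the 34652 gene symbols of the expression table. Apoe, Apoc1 and Apoc2 encode apolipoproteins, Pltp a phospholipid transfer protein, Lpl lipoprotein lipase, Abca1 and Abcg1 sterol exporters and Scarb1 a receptor for high-density lipoprotein. Ch25h encodes the enzyme that makes 25-hydroxycholesterol, and Acp5 a tartrate-resistant acid phosphatase.

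The dLAM group is labelled as resident macrophages and was sorted as CD45+, CD11b+, F4/80+, GFP+ cells without Ly6C. The Mono-MΦ group is labelled as monocyte-macrophages, and mixes CD45+, CD11b+, GFP- cells of 2 gates, one positive for F4/80 and one low for F4/80 and positive for Ly6C. Both came from tamoxifen-treated Cx3cr1CreER:mTmG mice, in which Cre under control of Cx3cr1 switches a membrane reporter to GFP. Cells were taken 12 days after the mice had received LLC-LeptoM, a derivative of Lewis lung carcinoma adapted to growth in the leptomeninges. GFP therefore marks cells in which Cx3cr1 was active when tamoxifen was given, and not one cell type as such. There were 3 bulk RNA libraries in each group, and neither the number or age of the mice behind a library nor whether libraries came from separate mice is stated, so p-values measure only how these libraries spread, and that spread may be technical. Estimated depth lay between 1.23e+07 and 1.70e+07 fragments per library. In bulk RNA, fewer cells of a type and less RNA per cell cannot be told apart.

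Macrophages take up lipoproteins, dead cells and membrane debris, and the cholesterol they gain must be stored as ester or exported. Export runs through the transporters ABCA1, which loads lipid-poor apolipoproteins such as ApoE, and ABCG1, which loads mature high-density lipoprotein. ApoE is the main apolipoprotein made within the brain. In macrophages, Apoe, the Apoc genes, Pltp, Lpl, Abca1 and Abcg1 are all known targets of the liver X receptors (LXR), nuclear receptors that oxysterols activate.

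The promoter windows of 3 of these genes are shown because they head the groups described below: the most abundant apolipoprotein, the exporter and the oxysterol enzyme. Each window runs from 250 bases before to 50 bases after a RefSeq transcription start (build GRCm38.p6, the assembly named mm10 by the submitters), on the gene's strand, which is the minus strand in each case. Windows were at hand for 6 of the 10 genes (Apoe, Apoc2, Pltp, Abca1, Ch25h and Acp5; 10 windows in all). The search covered both strands for 3 motifs: GGTNA followed after 5 bases of any kind by GGTNA again, a loose form of the direct repeat (DR4) that LXR binds with its partner RXR; TGACGTCA, the cyclic AMP response element; and GAGGAAGT, a form of the site of the macrophage factor PU.1. Capitals mark matches. The windows lie at chr7:19699139-19699438, chr4:53159846-53160145 and chr19:34475099-34475398.
Apoe: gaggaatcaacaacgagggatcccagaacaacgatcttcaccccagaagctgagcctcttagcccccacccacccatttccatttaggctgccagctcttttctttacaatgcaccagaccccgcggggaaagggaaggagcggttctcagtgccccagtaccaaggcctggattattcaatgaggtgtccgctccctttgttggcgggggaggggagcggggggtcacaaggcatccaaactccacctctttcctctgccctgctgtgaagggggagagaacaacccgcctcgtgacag
Abca1: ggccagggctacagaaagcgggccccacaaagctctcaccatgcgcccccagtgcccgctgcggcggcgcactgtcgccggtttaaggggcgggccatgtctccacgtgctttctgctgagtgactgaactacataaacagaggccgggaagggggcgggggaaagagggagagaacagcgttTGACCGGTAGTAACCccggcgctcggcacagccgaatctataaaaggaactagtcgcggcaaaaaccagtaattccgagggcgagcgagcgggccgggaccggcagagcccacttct
Ch25h: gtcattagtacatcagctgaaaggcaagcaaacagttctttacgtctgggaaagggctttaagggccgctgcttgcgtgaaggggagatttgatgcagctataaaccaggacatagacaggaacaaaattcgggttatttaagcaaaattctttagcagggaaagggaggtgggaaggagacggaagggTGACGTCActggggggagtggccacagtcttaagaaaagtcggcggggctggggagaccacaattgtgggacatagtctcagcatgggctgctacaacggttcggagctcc
The Abca1 window holds 1 match to the DR4 letters, starting 67 bases before the start and reading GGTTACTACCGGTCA on the opposite strand. Those letters occur in 0.719% of 32544 promoter windows of the same length. The Ch25h window holds TGACGTCA once, starting 61 bases before the start, letters found in 1.80% of windows. The PU.1 letters, found in 3.11% of windows, match no window of these genes, and no motif matches the windows of Apoe, Apoc2, Pltp or Acp5. Such a match describes the letters and is not a measured binding site.

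The genes did not move as a block. In dLAM libraries Apoe, Pltp, Abca1, Abcg1, Ch25h and Acp5 were higher than in Mono-MΦ libraries, Apoc1 and Scarb1 were lower, and Apoc2 and Lpl did not pass. Thus 6 of 10 were higher and 2 lower by limma at a Benjamini-Hochberg adjusted p under 0.05, against 19.9% higher and 10.6% lower (30.5% together) among the 11317 genes tested. For 8 of 10 genes the ranges of the groups did not overlap, against 46.2% of all genes tested; dLAM was higher in 6 of these, against 29.3%, and lower in 2, against 16.9%. All 10 passed the filter of 1 FPKM (fragments per kilobase of gene, scaled to the library's total) in at least 3 libraries, but Ch25h passed it through the dLAM libraries alone, so its difference was in part a condition of its being tested. Without Ch25h, 5 of 9 genes were higher. Taking out every gene that reached 1 FPKM in each library of only 1 group and in no library of the other leaves 10674 genes. Of these 1720 were higher in dLAM. The median log2 fold change of the 10, Ch25h included, was 0.88, against 0.06 for all genes tested. Log2 fold changes are dLAM minus Mono-MΦ on the log2(FPKM + 1) scale, which understates changes of low genes.

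**Figure D1:**
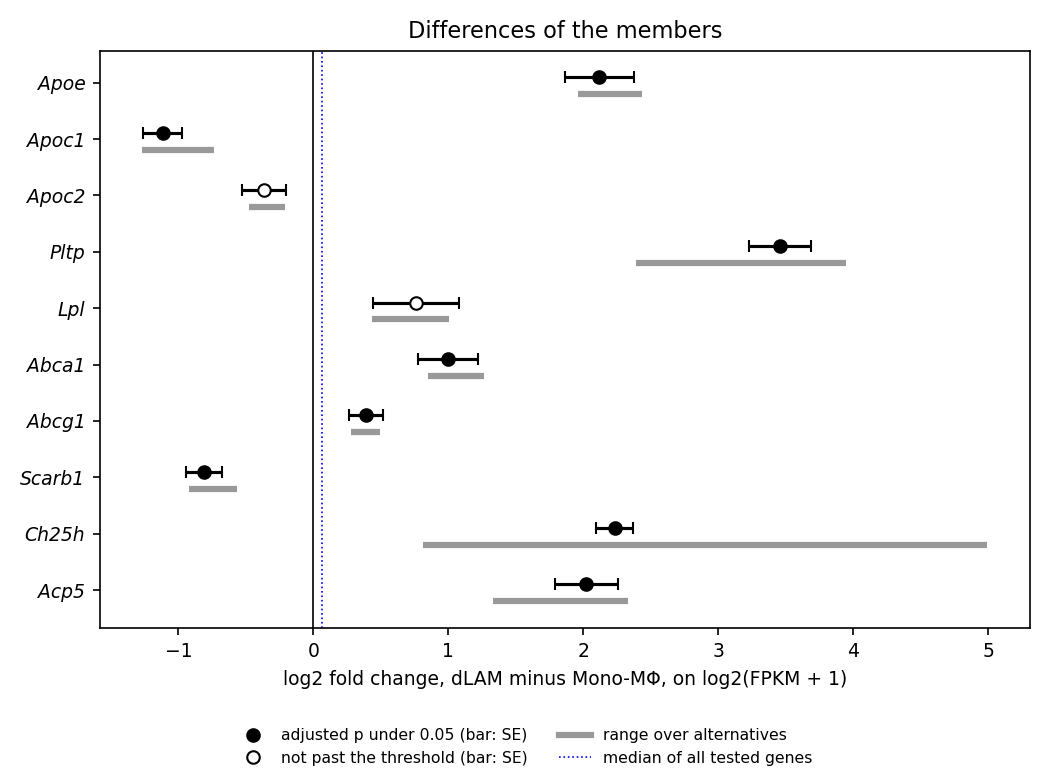
Log2 fold change of each gene (horizontal axis, log2(FPKM + 1) scale, dLAM minus Mono-MΦ) with its standard error as a bar; filled points passed an adjusted p of 0.05, grey lines give the range over up to 17 alternative settings, and the dotted line is the median of all tested genes. Apoc1 at -1.12 and Scarb1 at -0.81 lie left of 0 while Pltp reaches 3.45, and no grey line crosses 0.

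Scaling shifted the balance of calls over all genes. As deposited, 65.1% of calls were higher in dLAM. This share was 51.9% after scaling by the median of ratios, and 51.4% after quantile normalization, which moved the median of all genes by -0.11. All 10 genes kept their sign in every alternative in which they were tested. The calls of Apoe, Pltp, Acp5, Apoc1 and Scarb1 held in all 17 alternatives and that of Ch25h in the 16 in which it was tested; at a filter of 5 FPKM it was not.

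**Figure D2:**
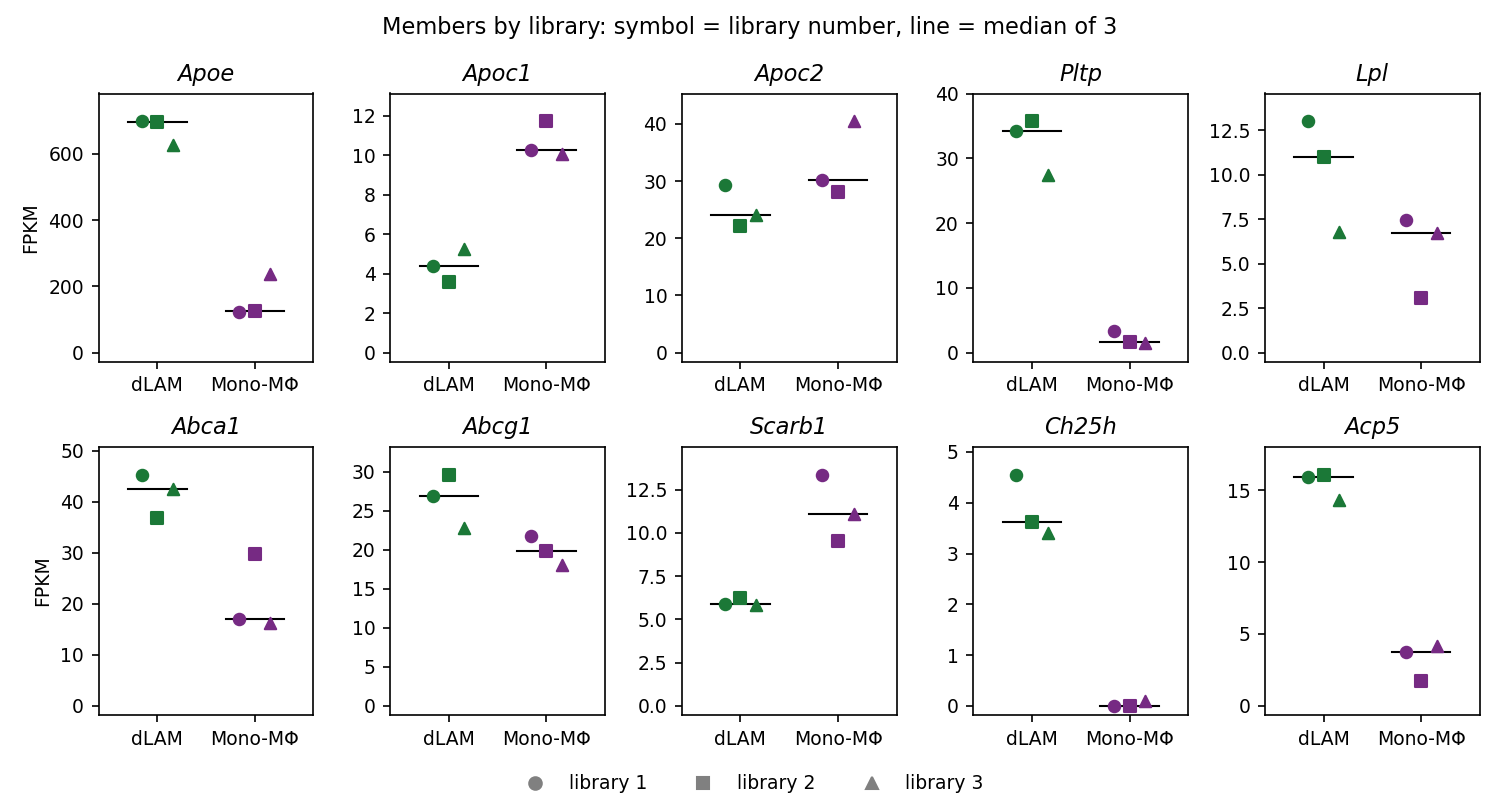
FPKM of the 10 genes in each library (vertical axes, separate scale per gene), dLAM left and Mono-MΦ right; symbols give the library number and lines the median of 3. Groups overlap only for Apoc2 and Lpl, and Mono-MΦ library 3 stands apart for Apoe at 238 FPKM, as does Mono-MΦ library 2 for Abca1 at 29.7 FPKM.

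Apoe was the most abundant of the genes in both groups and was 4.16-fold higher in dLAM by the ratio of means. It stood at 698, 696 and 628 FPKM in dLAM libraries 1, 2 and 3, against 123, 125 and 238 FPKM in Mono-MΦ libraries 1, 2 and 3. The dLAM libraries were close to each other, while Mono-MΦ library 3 had nearly double the level of the other Mono-MΦ libraries; the groups did not overlap. The log2 fold change was 2.12 (SE 0.26, limma adjusted p = 0.000794), and 2.43 without Mono-MΦ library 3. By FPKM, Apoe ranked 39, 36 and 36 among all genes of the table in dLAM libraries and 292, 264 and 142 in Mono-MΦ libraries. It made up 79.5%, 80.9% and 80.5% of the summed FPKM of the 10 genes in dLAM, against 53.4%, 54.3% and 68.7% in Mono-MΦ.

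Apoc1, whose product is a small exchangeable apolipoprotein that inhibits lipases and receptor uptake, went the other way. It had 4.41, 3.58 and 5.25 FPKM in dLAM libraries, against 10.2, 11.7 and 10.1 FPKM in Mono-MΦ libraries. All dLAM values were below all Mono-MΦ values. The log2 fold change was -1.12 (SE 0.14, limma adjusted p = 0.000997), from an estimated 33 to 49 fragments per dLAM library and 104 to 127 per Mono-MΦ library.

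Apoc2, the cofactor that lipoprotein lipase needs for its activity, had 29.4, 22.1 and 24.1 FPKM in dLAM libraries, against 30.2, 28.0 and 40.5 FPKM in Mono-MΦ libraries. The groups overlapped, since dLAM library 1 lay above Mono-MΦ library 2, and the log2 fold change of -0.37 (SE 0.16) did not pass by limma (adjusted p = 0.136). Apoc2 took place 5 of the 10 genes by median level in dLAM and place 2 in Mono-MΦ. In the GENCODE M21 annotation of mm10 it overlaps Gm44805, a gene on the same strand, over 6358 bases, and how the authors' counting treated such reads is not given, so its level is uncertain.

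These genes lie side by side on the minus strand of mouse chromosome 7 (mm10, GENCODE M21): Apoc2 at 19671579 to 19677941, Apoc4 at 19678083 to 19681479, Apoc1 at 19689481 to 19692660 and Apoe at 19696109 to 19699188. Changes along the region were not uniform. Apoc4, which lies between Apoc2 and Apoc1, was listed at 0.874, 0.175 and 0.694 FPKM in dLAM and at 0, 0 and 0.886 FPKM in Mono-MΦ, below the filter. On the far side of Apoe, Tomm40, a subunit of the mitochondrial import pore, was higher in dLAM by 0.71 (SE 0.18, limma adjusted p = 0.0219), and Pvrl2, the gene of the adhesion molecule nectin-2, by 0.91. On the other side Clptm1 was higher by 0.36 (limma adjusted p = 0.0493) and Relb, a subunit of NF-kB, by 1.70. Clasrp, farther out on that side, had a log2 fold change of 0.12 and did not pass, and Bcam, beyond Pvrl2, was at most 0.143 FPKM in dLAM and listed at 0 in each Mono-MΦ library.

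**Figure D3:**
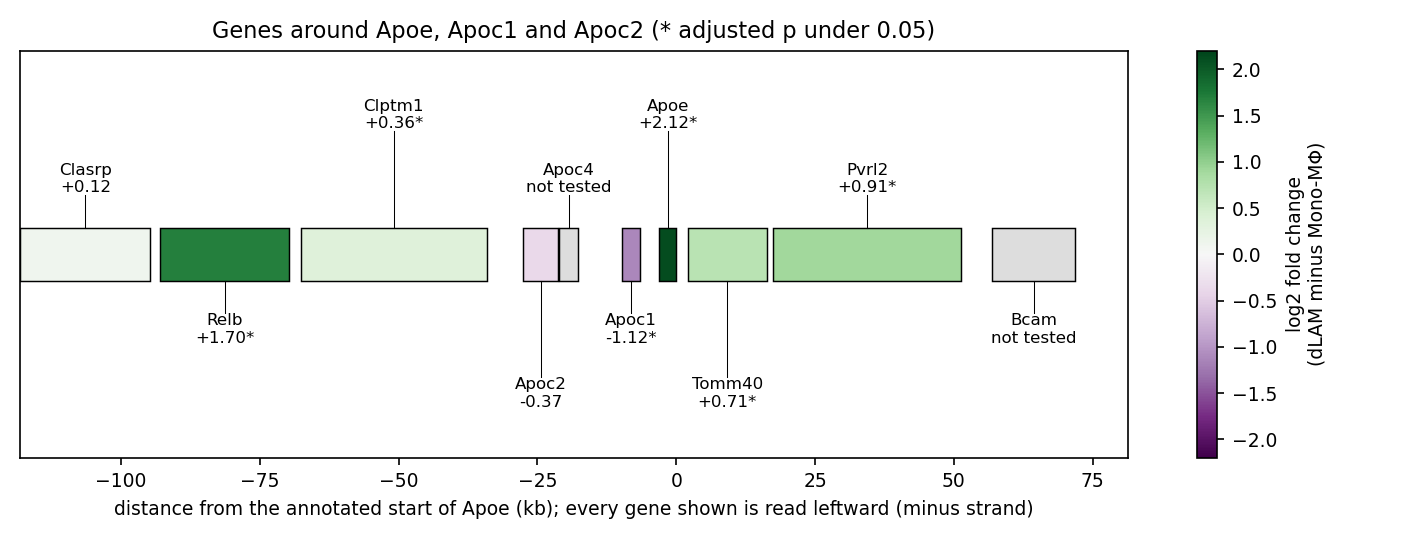
Genes around the apolipoprotein cluster by distance in kb from the annotated start of Apoe (horizontal axis), coloured by log2 fold change, dLAM minus Mono-MΦ; an asterisk marks an adjusted p under 0.05 and grey boxes are genes not tested. Apoe at 2.12 and Apoc1 at -1.12 are neighbours with opposite differences.

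Pltp had the largest log2 fold change of the 10 genes on the log2(FPKM + 1) scale; with a pseudocount of 0.1 that of Ch25h was larger, at 4.99 against 3.95 for Pltp. Its product moves phospholipid between lipoproteins and remodels high-density lipoprotein. It had 34.2, 35.7 and 27.5 FPKM in dLAM libraries, against 3.38, 1.59 and 1.47 FPKM in Mono-MΦ libraries. The lowest dLAM library was far above the highest Mono-MΦ library. The means were 32.5 ± 4.39 and 2.15 ± 1.07 FPKM in dLAM and Mono-MΦ (SD, n = 3 each), a 15.1-fold difference, and the log2 fold change of 3.45 (SE 0.23, limma adjusted p = 7.11e-05) was the 37th highest of 11317. Pltp overlaps Ctsa on the opposite strand over 1515 bases, and the strand handling of the counts is not given.

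Lpl encodes the lipase that releases fatty acids from triglyceride-rich lipoproteins and is also known as a marker of lipid-laden macrophages and activated microglia. It had 13.01, 11.0 and 6.78 FPKM in dLAM libraries, against 7.45, 3.10 and 6.75 FPKM in Mono-MΦ libraries. The groups overlapped, as dLAM library 3 fell below Mono-MΦ library 1, and the log2 fold change of 0.76 (SE 0.32) did not pass by limma (adjusted p = 0.112). The lowest library of each group was the one with Ddx3y, a Y-linked gene, at or above 5 FPKM (dLAM library 3 and Mono-MΦ library 2). With a term for that split the same difference passed (SE 0.12, adjusted p = 0.00383). Among the 4 libraries with less Ddx3y it was 0.68 (adjusted p = 0.0285), and the remaining pair stood at 6.78 FPKM in dLAM library 3 and 3.10 FPKM in Mono-MΦ library 2. Whether the sex of the mice had a part in this was not tested.

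Of the genes of sterol export, Abca1 was higher in dLAM and Abcg1 was higher by a margin at the threshold. Abca1 had 45.3, 36.8 and 42.4 FPKM in dLAM libraries, against 17.003, 29.7 and 16.3 FPKM in Mono-MΦ libraries. The groups did not overlap, but Mono-MΦ library 2 lay closer to dLAM than the other Mono-MΦ libraries did. The means differed 1.98-fold, at 41.5 ± 4.33 and 21.0 ± 7.53 FPKM in dLAM and Mono-MΦ (SD, n = 3 each), with a log2 fold change of 0.997 (SE 0.22, limma adjusted p = 0.0122). Without dLAM library 1 the adjusted p was 0.0503, and without Mono-MΦ library 2 the log2 fold change was 1.26.

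Abcg1 had 26.9, 29.7 and 22.9 FPKM in dLAM libraries, against 21.8, 19.8 and 18.0 FPKM in Mono-MΦ libraries. The groups came within about 1 FPKM of each other without overlapping. The log2 fold change was 0.39 (SE 0.12, limma adjusted p = 0.0497), and the call held in only 5 of 17 alternatives, with adjusted p between 0.0360 and 0.176 over all of them; it was lost with each of the 3 other scalings, with the replicate block (adjusted p = 0.0580), and without dLAM library 1 or 2 or Mono-MΦ library 2 or 3.

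Scarb1, whose product SR-BI takes up cholesterol ester from high-density lipoprotein and also lets free cholesterol pass in either direction, was lower in dLAM. It had 5.87, 6.22 and 5.81 FPKM in dLAM libraries, against 13.4, 9.53 and 11.1 FPKM in Mono-MΦ libraries. The dLAM libraries were nearly alike and all below the Mono-MΦ libraries. Expression in Mono-MΦ was 1.899-fold that in dLAM, and the log2 fold change was -0.81 (SE 0.13, limma adjusted p = 0.00324). Scarb1 overlaps Gm42633, an unconfirmed gene model on the same strand, over 2764 bases.

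Ch25h was detected almost only in dLAM. It had 4.56, 3.61 and 3.40 FPKM in dLAM libraries, and was listed at 0, 0 and 0.0870 FPKM in Mono-MΦ libraries. By estimate these were 94, 62 and 59 fragments in dLAM and 0, 0 and 2 in Mono-MΦ, where 1 fragment of this gene is worth between 0.0424 and 0.0527 FPKM. The log2 fold change was 2.23 (SE 0.14, limma adjusted p = 5.09e-05). Because 2 libraries are listed at 0 it depends on the pseudocount, at 4.99 with a pseudocount of 0.1 and 0.81 with 5, and no ratio of means is given. The gene overlaps Gm26902 on the opposite strand over 357 bases.

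Acp5 is best known from osteoclasts and is also made by macrophages of other tissues. It had 15.9, 16.1 and 14.3 FPKM in dLAM libraries, against 3.72, 1.72 and 4.15 FPKM in Mono-MΦ libraries. No library of one group reached the other. The means were 15.5 ± 0.968 and 3.20 ± 1.30 FPKM in dLAM and Mono-MΦ (SD, n = 3 each), a 4.83-fold difference with a log2 fold change of 2.02 (SE 0.23, limma adjusted p = 0.000675). The antisense transcript 6530413G14Rik spans the whole of Acp5 in the annotation and has no row in the table.

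Ordered by FPKM, which is scaled by gene length, the genes of dLAM ran Apoe, Abca1, Pltp, Abcg1, Apoc2, Acp5, Lpl, Scarb1, Apoc1 and Ch25h. The ranges of Pltp and Abcg1, of Abcg1 and Apoc2, and of Apoc1 and Ch25h overlapped, so these neighbours did not differ beyond the spread of 3 libraries. In Mono-MΦ the order was Apoe, Apoc2, Abcg1, Abca1, Scarb1, Apoc1, Lpl, Acp5, Pltp and Ch25h. There the ranges overlapped for Abcg1 and Abca1, Scarb1 and Apoc1, Lpl and Acp5, and Acp5 and Pltp. Pltp thus stood in place 3 in dLAM and in place 9 in Mono-MΦ.

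Ratios between genes within a library do not depend on the scaling between libraries. The pairs below were chosen after the values were seen and carry no test. The ratio of Apoe to Apoc1 was 158, 195 and 120 in dLAM libraries, against 12.004, 10.7 and 23.7 in Mono-MΦ libraries. The ratio of Abca1 to Scarb1 was 7.72, 5.92 and 7.30 in dLAM, against 1.27, 3.11 and 1.47 in Mono-MΦ. Both ratios were higher in every dLAM library than in any Mono-MΦ library. The ratio of Pltp to Lpl was 2.63, 3.24 and 4.05 in dLAM, against 0.454, 0.511 and 0.218 in Mono-MΦ, so that Pltp exceeded Lpl in each dLAM library and Lpl exceeded Pltp in each Mono-MΦ library. The ratio of Abca1 to Abcg1, at 1.68, 1.24 and 1.85 in dLAM, against 0.780, 1.495 and 0.904 in Mono-MΦ, overlapped between the groups.

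**Figure D4:**
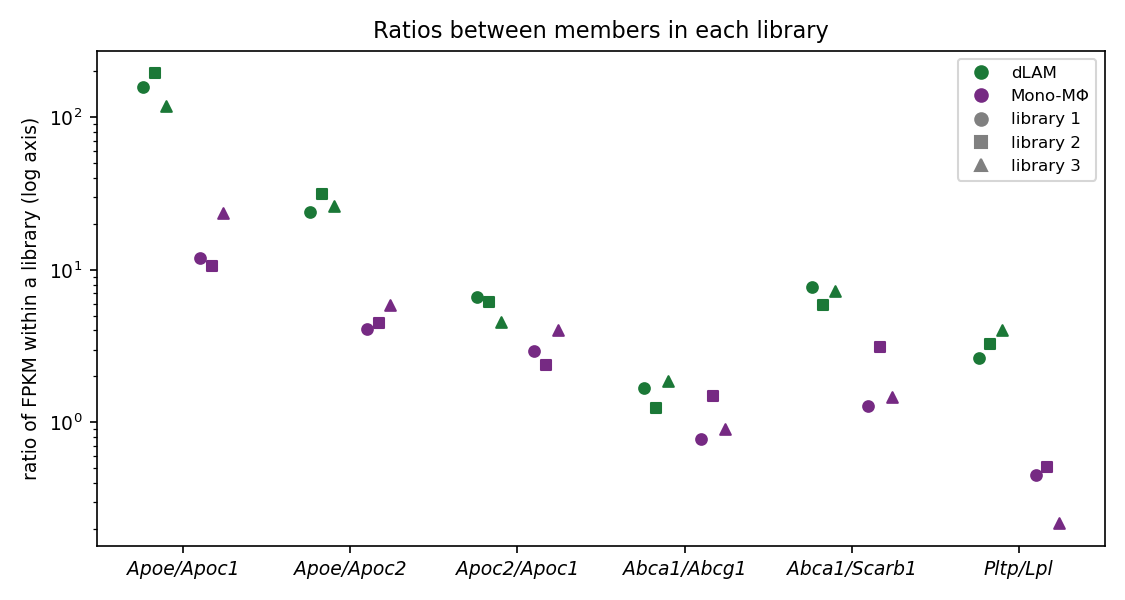
Ratio of FPKM between 2 genes within each library (vertical log axis) for 6 gene pairs, dLAM left of Mono-MΦ in each pair; symbols give the library number. The groups overlap for Abca1/Abcg1 alone, and Apoe/Apoc1 lies at 120 or more in dLAM and at 23.7 or less in Mono-MΦ.

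Further genes were read from 7 lists of 145 genes. They cover lipoprotein and cholesterol metabolism, the LXR axis and oxysterols, and also genes of lipid-associated macrophages and of osteoclasts. Of the 145 genes, 105 were tested, 43 higher and 11 lower in dLAM. This is 51.4% called, against 30.5% of all genes tested. The lists of lipid-associated macrophages and osteoclasts, with 78.9% and 63.6% called, are part of that share. Some of the listed genes reached 1 FPKM in each dLAM library and in no Mono-MΦ library. Like Ch25h they were tested only because they are high in dLAM, and they are named below. The counts and shares above, and the first count and share of each list below, still include them. Where a list holds such genes, a further count of genes higher leaves them out. Of the 26 other genes of lipoprotein particles in the table, only 6 passed the filter. The apolipoprotein genes Apod and Apol7c were the list's 2 calls, with log2 fold changes of 1.35 and 1.81, and both passed the filter only through dLAM, so nothing is read from them. Apod had 1.81 ± 0.602 and 0.0842 ± 0.0317 FPKM in dLAM and Mono-MΦ (SD, n = 3 each), and Apol7c was listed at 0 in Mono-MΦ libraries 1 and 2. Neither Sel1l, which helps Lpl leave the endoplasmic reticulum (log2 fold change 0.15), nor Lipg, endothelial lipase (-0.87), passed. Lipg was low and scattered, at 0.928, 1.14 and 0.957 FPKM in dLAM libraries, against 1.10, 2.80 and 5.13 FPKM in Mono-MΦ libraries.

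Among 19 tested lipoprotein and scavenger receptor genes 5 were higher and 2 lower, which is 36.8% called and near the 30.5% of all genes. Cd36 was tested only through dLAM, and without it 4 of 18 were higher, against 1720 of 10674 of all genes. Cxcl16, whose product is both a chemokine and a receptor for oxidized lipoprotein, had 51.9 ± 4.005 and 4.08 ± 1.43 FPKM, and Stab1 32.2 ± 4.45 and 2.42 ± 0.395 FPKM, in dLAM and Mono-MΦ (SD, n = 3 each). Cd36, a receptor for oxidized lipoprotein and fatty acids, had a log2 fold change of 1.52. The sorting receptors Sort1 and Sorl1 were lower, with log2 fold changes of -1.995 and -1.001, Sort1 at 3.79 ± 0.206 and 18.1 ± 1.68 FPKM in dLAM and Mono-MΦ (SD, n = 3 each). Lrp1, a receptor of ApoE, had a log2 fold change of 0.17 and did not pass, nor did the scavenger receptor Msr1, at -0.07.

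Of 25 tested genes of lipid pumps and intracellular cholesterol transport 5 were higher, a share of 20% that matches the 19.9% of all genes, and 5 were lower, against 10.6% of all genes (median -0.02). Abcg3, a rodent relative of Abcg2, was higher by 1.64, Abca2 by 0.83 and Osbpl1a, an oxysterol-binding protein, by 0.45. Abca7, a phospholipid exporter, was lower at 17.3 ± 1.46 and 34.7 ± 1.89 FPKM in dLAM and Mono-MΦ (SD, n = 3 each; log2 fold change -0.96). Soat1, which makes cholesterol ester for storage, was lower with a log2 fold change of -0.72, and Tspo with -0.57. Neither of the lysosomal genes Npc2 (-0.01) and Scarb2 (0.09) passed. Leaving out any 1 dLAM library left 2 genes higher and 3 lower, and leaving out Mono-MΦ library 1 left 3 lower.

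Of 20 tested genes of the LXR axis, 7 were higher (35%, against 19.9% of all genes) and 2 lower (10%, against 10.6%). Of the 7, Nr1h3, Scd1 and Pparg were tested only through dLAM, which leaves 4 of 17, against 1720 of 10674 of all genes. Nr1h3, which encodes LXR alpha, was low, at 1.23, 1.79 and 1.06 FPKM in dLAM libraries, against 0.578, 0.467 and 0.227 FPKM in Mono-MΦ libraries (log2 fold change 0.72, SE 0.17). Nr1h2, which encodes LXR beta, had 12.4 ± 1.22 and 12.003 ± 0.495 FPKM in dLAM and Mono-MΦ (SD, n = 3 each) and did not pass. Among known LXR targets, Mertk, a receptor for apoptotic cells, was higher by 2.86 and the desaturase gene Scd1 had a log2 fold change of 1.86, while Smpdl3a, a phosphodiesterase gene, was lower at 36.9 ± 4.36 and 127 ± 16.7 FPKM in dLAM and Mono-MΦ (SD, n = 3 each). Tnfaip3, an inhibitor of NF-kB signalling on the list, was higher by 1.26, and the coactivator gene Ncoa1 was lower, with a log2 fold change of -0.52. The corepressor gene Ncor1 (-0.15) did not pass. Leaving out dLAM library 1 or 2 left 1 gene lower.

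Genes of oxysterol handling, the pathway that Ch25h feeds, were called in 7 of 10 cases, 6 higher (60%, against 19.9% of all genes) and 1 lower. Cyp7b1 was tested only through dLAM, and without it 5 of 9 were higher, against 1720 of 10674 of all genes. Cyp7b1, which turns 25-hydroxycholesterol into the ligand of Gpr183, stood at 1.902 ± 0.356 and 0.442 ± 0.0174 FPKM, and the receptor gene Gpr183 at 23.3 ± 0.932 and 11.6 ± 1.995 FPKM, in dLAM and Mono-MΦ (SD, n = 3 each). Hsd3b7, which degrades that ligand, was higher by 0.47 (limma adjusted p = 0.0302). Srebf2, the regulator of cholesterol synthesis, was higher by 0.94. Osbp, an oxysterol-binding lipid exchanger, was lower with a log2 fold change of -0.34, a call lost when any dLAM library or Mono-MΦ library 1 was left out. Insig1 (0.15), which holds back sterol synthesis, and Cyp27a1 (0.16), which makes 27-hydroxycholesterol, did not pass.

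Genes known from lipid-associated macrophages were higher in 13 of 19 tested cases (68.4%, against 19.9% of all genes). In 2 cases they were lower (10.5%, against 10.6% of all genes), and their median was 1.05. Without Cd36, tested only through dLAM, 12 of 18 were higher, against 1720 of 10674 of all genes. Trem2, a lipid-sensing receptor that binds ApoE, had 13.7, 12.5 and 10.3 FPKM in dLAM libraries, against 2.61, 1.51 and 3.01 FPKM in Mono-MΦ libraries (log2 fold change 1.98, SE 0.20, limma adjusted p = 0.000353). Axl, Itgax and Spp1 were higher by 3.85, 3.32 and 2.01. The lipid droplet coat gene Plin2 was lower at 18.4 ± 0.972 and 31.8 ± 6.73 FPKM in dLAM and Mono-MΦ (SD, n = 3 each), and Lgals3, which encodes galectin-3, was lower with a log2 fold change of -0.91. Tyrobp (-0.37), the signalling partner of Trem2, and Clec7a (0.40), a receptor for glucans, did not pass. Of 11 tested genes of osteoclasts, where Acp5 is best known, 7 were higher (63.6%, against 19.9% of all genes). However, Ctsk, Dcstamp and Car2 were tested only through dLAM, which leaves 4 of 8, against 1720 of 10674 of all genes. Tnfrsf11a, the receptor for the osteoclast factor RANKL, was higher by 1.35. Car2 and Dcstamp had log2 fold changes of 1.65 and 1.54, Dcstamp being listed at 0 in each Mono-MΦ library, while the protease gene Ctsk had 2.69 ± 0.742 and 0.662 ± 0.284 FPKM in dLAM and Mono-MΦ (SD, n = 3 each). Mmp9 (0.20) and Tcirg1 (0.17) did not pass.

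**Figure D5:**
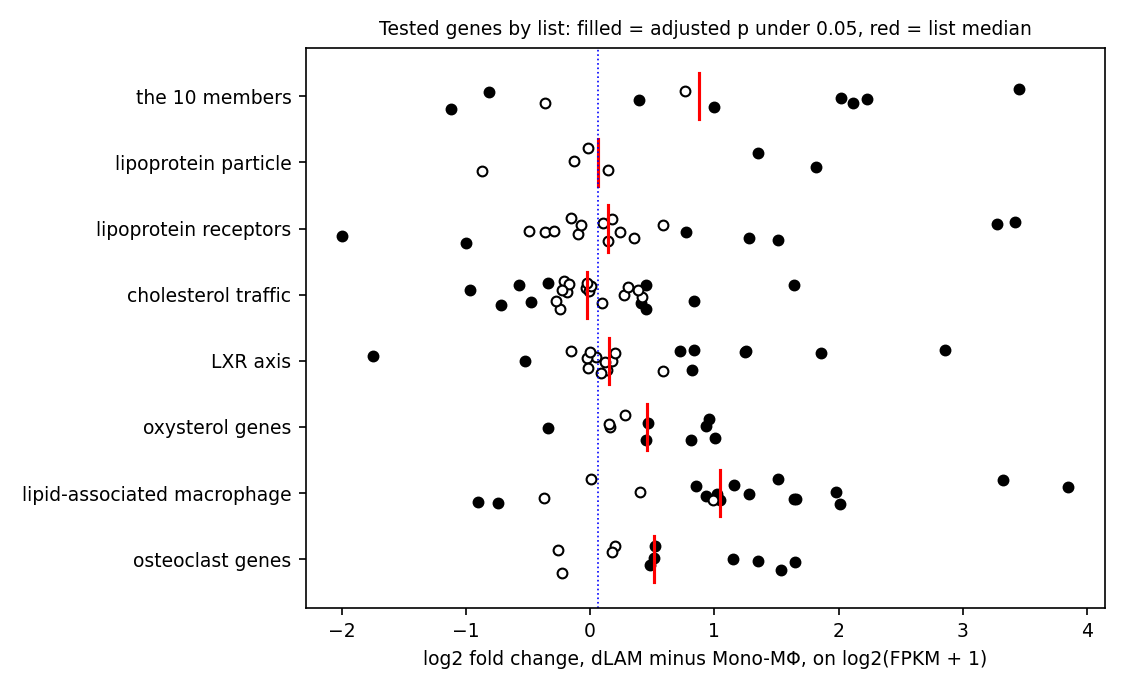
Log2 fold change (horizontal axis, dLAM minus Mono-MΦ) of every tested gene of the 10 described genes and of 7 lists. The lists hold genes of lipid metabolism, of lipid-associated macrophages and of osteoclasts. Filled points passed an adjusted p of 0.05, red lines are list medians and the dotted line the median of all tested genes. List medians run from -0.02 for cholesterol traffic to 1.05 for genes of lipid-associated macrophages.

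Markers of other cells moved with the same groups. Of all genes tested, 19.9% were higher in dLAM and 10.6% lower. All 15 T cell markers were higher in dLAM, with a summed level between 216 and 272 FPKM in dLAM libraries and between 6.66 and 38.2 FPKM in Mono-MΦ libraries. Of 14 tested dendritic cell markers 12 were higher (sums between 235 and 311 FPKM in dLAM, against 71.2 to 149 FPKM in Mono-MΦ), and so were 5 of 6 tested markers of the mast cell, basophil and eosinophil lines (39.1 to 100 FPKM, against 1.46 to 2.32 FPKM). All 5 tested B and plasma cell markers were higher too (70.0 to 347 FPKM in dLAM, against 13.8 to 37.5 FPKM in Mono-MΦ), as were all 4 tested natural killer cell markers (13.6 to 23.6 FPKM, against 1.99 to 5.01 FPKM). In the other direction, 8 of 12 neutrophil markers were lower in dLAM (723 to 975 FPKM, against 1374 to 7821 FPKM in Mono-MΦ), as were all 12 classical monocyte markers (1291 to 1975 FPKM, against 5629 to 7230 FPKM). The part of these cells in the differences of the 10 genes was not tested. Some of the called markers reached 1 FPKM in each dLAM library and in no Mono-MΦ library. They were tested only because they are high in dLAM. They include all 5 of the mast cell, basophil and eosinophil lines (Cpa3, Mcpt4, Tpsb2, Cma1 and Prg2), from which nothing is read. Among dendritic cell markers they are Zbtb46, Xcr1, Clec9a, Ccr7, Ccl22, Fscn1, Siglech and Cacnb3. Cd247, Cd28 and Bcl11b (T cell), Cd79a and Mzb1 (B cell), and Ncr1 and Prf1 (natural killer cell) are such genes too.

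Further marker lists cover cells outside the macrophage lineage, some of them known to make apolipoproteins, and macrophages themselves. The part of these cells in the differences of the 10 genes was not tested either. Of 10 hepatocyte markers 0 were tested, since none reached the filter, and Alb, Apoc3, Apoh, Serpina1a and Ahsg were listed at 0 in every library. Of 13 markers of neural and choroid cells 2 were tested (sums 14.5 to 21.6 FPKM in dLAM, against 7.63 to 9.66 FPKM in Mono-MΦ). The 1 higher was the astrocyte marker Aldoc (log2 fold change 1.69, limma adjusted p = 0.000256). It had 5.70, 5.64 and 4.36 FPKM in dLAM libraries, against 0.777, 1.23 and 0.805 FPKM in Mono-MΦ libraries. Gfap, another astrocyte marker, had 1.03, 0.978 and 0.578 FPKM in dLAM, against 0.200, 0.165 and 0.446 FPKM in Mono-MΦ, and was not tested. In all, 9 markers stayed under 1 FPKM everywhere, the astrocyte markers Aqp4 and Slc1a3 among them. Ttr, made by choroid plexus and liver, was at 0.776, 6.47 and 0.925 FPKM in dLAM and listed at 0 in each Mono-MΦ library. Of 9 meningeal fibroblast markers 2 were tested and both were higher (sums 8.52 to 10.9 FPKM in dLAM, against 0.692 to 1.502 FPKM in Mono-MΦ). Both were tested only because they are high in dLAM, so nothing is read from that count. Of 9 epithelial and carcinoma markers 3 were tested and higher (27.0 to 31.8 FPKM, against 1.99 to 3.18 FPKM), with Sftpc and Nkx2-1 listed at 0 throughout. That last sum is mostly Cdh1 and Epcam: without them it was 1.32 to 2.39 FPKM in dLAM, against 0.456 to 0.907 FPKM in Mono-MΦ, and 6 of the 9 markers, Krt8, Krt19, Krt7 and Cldn4 among them, stayed under 1 FPKM everywhere. Endothelial and mural markers were 1 higher and 1 lower of 4 tested (7.997 to 8.57 FPKM, against 8.64 to 12.6 FPKM), and 3 of 4 tested red cell and platelet markers were higher (45.9 to 60.6 FPKM, against 2.73 to 15.5 FPKM). The red cell and platelet sum is mostly Pf4, also a border macrophage marker; without it the sums were 6.94 to 8.32 FPKM in dLAM, against 0.635 to 4.13 FPKM in Mono-MΦ. Of the macrophage markers Csf1r stood at 276, 256 and 219 FPKM in dLAM libraries, against 147, 112 and 104 FPKM in Mono-MΦ libraries. Of all 10 such markers 4 were higher and 1, Lyz2, lower in dLAM (sums 3974 to 5432 FPKM in dLAM, against 7197 to 10636 FPKM in Mono-MΦ). These sums are mostly Lyz2 and follow its direction, not that of the other markers. Lyz2 stood at 4143, 4533 and 3115 FPKM in dLAM libraries, against 9972, 6585 and 9156 FPKM in Mono-MΦ libraries. Mertk was at 18.9, 17.1 and 18.0 FPKM in dLAM, against 0.789, 1.18 and 3.65 FPKM in Mono-MΦ, and Itgam, the gene of the sorted marker CD11b, at 1.96 to 2.24 FPKM in dLAM and 2.60 to 3.12 FPKM in Mono-MΦ. All 11 microglia markers were higher (294 to 511 FPKM in dLAM, against 69.3 to 98.1 FPKM in Mono-MΦ). Of 11 tested border macrophage markers 10 were higher and F13a1, also a classical monocyte marker, was lower. Their sum was 425 to 481 FPKM in dLAM, against 768 to 948 FPKM in Mono-MΦ. Without F13a1 it was 269 to 299.7 FPKM in dLAM, against 26.5 to 43.8 FPKM in Mono-MΦ. Some called markers of this paragraph were also tested only because they are high in dLAM. They include Col3a1 and Aldh1a2 (fibroblast), Epcam and Krt18 (epithelial), Kdr (endothelial) and Hbb-bs (red cell). In the microglia list they are Sall1, Siglech, Gpr34, Fcrls and Sparc, and in the border list Cd163, Lyve1, Timd4, Folr2 and Ms4a7.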

How the data were processed

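The 6 libraries came from sorted cells of cerebrospinal fluid. Per the labels' protocols, total RNA with an integrity number above 7 was turned into libraries that were read from both ends over 150 bp. The authors deposited 1 table of FPKM, each column matching 1 library. Per the submitters' processing notes, FastQC, HISAT2, featureCounts and the build mm10 were used. Versions, strand handling, the annotation and the gene lengths and totals used for FPKM were not stated there or in the labels. The series' text speaks of 10 samples, of which 6 were analysed here.

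Since FPKM values are no counts, count models were not fitted. Genes with at least 1 FPKM in at least 3 of 6 libraries (11317) were tested on log2(FPKM + 1) with limma 3.58.1 (R 4.3.3), 1 term for the group and trended empirical Bayes variances. Benjamini-Hochberg adjustment ran over all genes tested, and calls needed an adjusted p under 0.05. The fit was also run on simulated data, drawn as independent normal values around each gene's mean. Such data cannot test the scaling between libraries. SE is the standard error of the log2 fold change and SD the standard deviation over 3 libraries. Where a library is listed at 0 no mean is given, since some zeros may be missing values (mt-Co1 is listed at 0 in dLAM library 2). Depth was estimated from the smallest steps of the values with exon lengths of GENCODE M21, to which 94.3% of symbols matched; between 40.4% and 44.1% of values under 20 fragments came out whole within 0.02, so counts were not recovered. Estimated fragments cover counting precision only. Positions and overlaps are from GENCODE M21 on mm10, and promoter sequences from RefSeq (GRCm38.p6). Tables and plots used Python 3.11.15, pandas 2.3.3 and matplotlib 3.10.9.

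The 10 genes and all gene lists were chosen with earlier results of these data known. Named from each pathway list were the called genes with the largest change, up to 3 in each direction, and up to 2 abundant genes that were not called, besides the neighbours of Apoe and genes fixed by name (Nr1h2, Nr1h3, Trem2, Gpr183, Cyp7b1 and Ctsk); some genes that this rule names are not reported here; Hsd3b7 and the marker genes given with values were named after their values were seen. The 17 alternatives were other pseudocounts, filters, scalings and variance estimates, a replicate block, 2 treatments of the libraries with high Ddx3y, and leaving out each library.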

Additional observations from a re-analysis of the deposited data

How the results depend on the processing

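Nothing reversed among the 10 genes and the counts of calls. The weakest call was that of Abcg1: its log2 fold change of 0.39 no longer passed with a pseudocount of 0.1 (0.41), without a filter (0.39), with TPM (0.45), median-of-ratios (0.28) or quantile (0.37) scaling, without the mean-variance trend (0.39), with the replicate block (0.39) or within the 4 libraries with low Ddx3y (0.49), and leaving out 1 library gave 0.31 to 0.49. Leaving out 1 library gave 0.85 to 1.26 for Abca1, which no longer passed without dLAM library 1, and between 4 and 6 genes of the 10 called higher. Lpl passed with the Ddx3y term (0.76) and within the low Ddx3y libraries (0.68). Over all genes, 1247 were higher at a filter of 5 FPKM, which tests fewer genes, and 1480 higher and 780 lower within the 4 low Ddx3y libraries, which are fewer samples; leaving out 1 library gave 780 to 1220 lower, against 2249 higher and 1204 lower with all libraries. The cause of the other changes was not tested.

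In the lists, cholesterol traffic had 3 higher with a pseudocount of 0.1, 2 with median-of-ratios or quantile scaling, 3 higher and 3 lower with the block, 2 higher and 3 lower within low Ddx3y, and 2 to 5 higher and 3 to 5 lower without 1 library. The lipoprotein particle list had 5 higher without a filter, 0 higher at 5 FPKM, 1 lower with quantile normalization and 0 to 1 lower without 1 library. At 5 FPKM the LXR axis had 4 higher, the oxysterol list 3 and the osteoclast list 3; without 1 library the LXR axis had 1 to 2 lower. The oxysterol list had 0 lower with TPM, the block or low Ddx3y, and 0 to 1 without 1 library; the osteoclast list had 1 lower with median-of-ratios scaling, and the lipid-associated list 0 lower within low Ddx3y.

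The replicate numbers were not treated as pairs: deviations of same-numbered libraries from their group means correlated across genes at 0.189, -0.147 and -0.0887. With the replicate block 1860 genes were higher and 999 lower, and among the 10 genes it changed the call of Abcg1 alone (adjusted p = 0.0580). Depth limits Ch25h, with an estimated 0 to 2 fragments per Mono-MΦ library.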
